A study of Mus musculus with 4 samples.

Results

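Interferon response genes were examined in mouse hematopoietic stem and early progenitor cells that lacked Klf7 or carried it. The set holds 46 genes: the receptors, transcription factors, sensors and induced effectors of interferon signalling. Each was represented by the brightest probe set whose only gene symbol was that gene, and 41 of the 46 could be measured this way, among 19938 genes on the arrays. The cells were taken from bone marrow by their Lin- c-Kit+ Sca-1+ surface profile, called KLS, which enriches stem and multipotent progenitor cells. They came from chimeric mice on the C57Bl/6 background, established with fetal liver cells, that held Klf7-/- and Klf7+/+ bone marrow cells together. The Klf7-/- arrays (knockout) numbered 2 and the Klf7+/+ arrays (wild type) numbered 2. How the genotypes were separated, the animals' age and the number of mice or embryos behind each array are not stated, so p-values measure only the spread between these arrays, which may be technical.

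Interferons bind paired receptor chains at the cell surface. Type I interferon uses Ifnar1 and Ifnar2, and interferon gamma uses Ifngr1 and Ifngr2. The receptors activate Jak kinases, which send Stat and Irf transcription factors to short promoter elements, and these switch on genes that detect, cut or trap viral material. In the bone marrow, interferons can drive dormant stem cells into division, and the Sca-1 antigen used in the sort is itself interferon-inducible. Levels of the Sca-1 gene were not analysed here.

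The arrays gave median intensities between 51.01 and 52.26, and the number of arrays limits the precision. Klf7 itself read 6.59 and 6.18 (log2 intensity) in knockout, against 5.95 and 6.10 in wild type, so its probe set did not show the loss of the gene. The labels do not name the deleted stretch of Klf7, and probes lying outside it would detect no loss. The genotype labels, and with them the sign of every difference given here, could therefore not be checked from the arrays, and knockout and wild type stand for the arrays so labelled. Xist was 100.4-fold higher in knockout (limma adjusted p = 0.0454) and Y-linked genes were lower, so donor sex and genotype cannot be told apart in these arrays. Of 10 stem and progenitor markers measured, 7 were higher in both knockout arrays than in both wild-type arrays, against 14.5% of all genes. The smallest of these differences was 0.08, for Slamf1. The summed intensity of all 10 was 5252 and 5313 in knockout, against 4183 and 3829 in wild type. Mecom, a stem cell transcription factor gene of that list, lay the other way, at 6.25 and 6.13 in knockout, against 7.20 and 6.59 in wild type, with a difference of -0.71, the largest of the 10. Gata2 differed by -0.20 with overlap. Lists of T, NK, B, plasmacytoid dendritic, monocyte, erythroid and megakaryocyte markers summed to between 96.3 and 803 on every array, and none of their members passed the threshold. The lowest defining markers (Klrb1c and Ms4a1) had group means of 3.93 to 3.97 on the log2 scale, while Pf4 (megakaryocytes) averaged 8.68 in knockout and 8.39 in wild type, and Lyz2 (myeloid cells) 7.10 in knockout and 7.63 in wild type. Ppbp, a platelet chemokine gene of the megakaryocyte list, read 6.00 and 5.47 in knockout, against 4.85 and 4.14 in wild type, and differed by 1.24 without overlap. Also without overlap, Ebf1, Slc4a1 and Itga2b were on the higher side in knockout, by 0.35, 0.28 and 0.14, and Cd3e, Gzma, Siglech and Cd14 on the lower side, by differences of -0.10, -0.43, -0.54 and -0.28. Granulocyte markers summed to 2702 and 715 in knockout, against 1075 and 1768 in wild type. The part of these markers in the results below was not tested. In sorted bulk cells, fewer cells of a type and less RNA per cell cannot be told apart.

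The promoters of the genes with the largest differences, and of some of their neighbours, are shown. They carry or lack the element through which type I interferon acts, the interferon-stimulated response element. Each line gives RefSeq sequence (build GRCm38.p6) on the strand of the gene, 5′ to 3′, and capitals mark matches on either strand to its core pattern, GAAA followed by any 2 bases and GAAA again. The Ifitm3 line is the site just after the transcription start and the other lines lie before the start.
Ifitm1, chr7:140967976-140968075, plus strand: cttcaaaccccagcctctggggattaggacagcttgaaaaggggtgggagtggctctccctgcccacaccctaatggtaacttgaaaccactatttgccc
Ifitm2, chr7:140955962-140956061, minus strand: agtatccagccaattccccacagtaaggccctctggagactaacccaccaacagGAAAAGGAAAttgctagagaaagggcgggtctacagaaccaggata
Ifitm3, chr7:141010715-141010744, minus strand: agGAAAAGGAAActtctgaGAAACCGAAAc
Irgm1, chr11:48871421-48871520, minus strand: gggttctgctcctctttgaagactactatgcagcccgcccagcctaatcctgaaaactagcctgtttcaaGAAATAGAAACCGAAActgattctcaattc
Ifit3, chr19:34583359-34583458, plus strand: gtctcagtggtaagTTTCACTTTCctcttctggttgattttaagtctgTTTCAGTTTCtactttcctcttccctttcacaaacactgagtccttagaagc
Ifit1, chr19:34640759-34640858, plus strand: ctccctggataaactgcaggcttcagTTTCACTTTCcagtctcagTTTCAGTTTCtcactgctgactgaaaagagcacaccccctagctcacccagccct

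RefSeq windows of 250 bases before to 50 bases after the start were at hand for 36 of the 46 genes. The 10-base response element pattern (GAAA, any 2 bases, GAAA), searched on both strands with overlapping matches allowed, was present in 17 of the 36 (47.2%), against 3.99% of the 27025 genes with a window. The pattern of TTC, any 3 bases and GAA, the palindromic element bound by Stat dimers after interferon gamma, was present in 11 of the 36 (30.6%), against 9.55% of all genes. Irgm1 carried 2 overlapping matches that start 30 and 24 bases before its transcription start (positions -30 and -24). Ifitm1 carried no match to the response element pattern in its window, whereas Ifitm2 and Ifitm3 each did. Ifit2, the direct neighbour of Ifit3, carried no match in its windows either, and its promoter is not shown above. A match is a description of the letters and not a bound site. The 13 measured genes with the response element pattern had a median difference of 0.02 on the log2 scale between knockout and wild type, and 8 of them were higher in knockout. The 18 measured genes with a window and no match had a median of -0.02, and 9 of them were higher in knockout.

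No interferon response gene passed the test. Knockout was compared with wild type with limma over 28939 probe sets, with a threshold of 0.05 on the Benjamini-Hochberg adjusted p, and the 41 genes had adjusted p between 0.945 and 1.000. Of all probe sets 0.00346% passed, which is Xist alone. At an unadjusted p under 0.05 stood 7 of the 41 genes (3 higher and 4 lower in knockout), against 4.81% of all genes and 5.01% of all probe sets. Differences below are in log2 units, with wild type subtracted from knockout, and carry the moderated standard error (SE, n = 2 per group).

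Within the group the genes differed in direction. There were 25 higher and 16 lower in knockout, with a median difference of 0.05 and quartiles of -0.16 and 0.39. Over all genes the median was -0.03, the quartiles were -0.18 and 0.13, and 45.0% were higher. The upper quartile of the 41 genes thus lay above that of all genes. All genes were not matched to the 41 for signal level, and 32 of the 41 lay above the median gene in mean level. With 2 arrays per group, a lack of shift was not shown. The median level of the 41 genes was 6.59 and 6.56 in the knockout arrays, against 6.29 and 6.62 in the wild-type arrays, so the groups overlapped. Groups did not overlap for 18 of the 41 genes, of which 11 were higher and 7 lower in knockout, against 33.2% of all genes (14.5% higher and 18.6% lower). At least 2-fold apart without overlap were 3 genes, against 1.22% of all genes. These were Ifitm1 and Irgm1 on the lower side, against 0.487% of all genes, and Ifit3 on the higher side, against 0.732%.

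**Figure D1:**
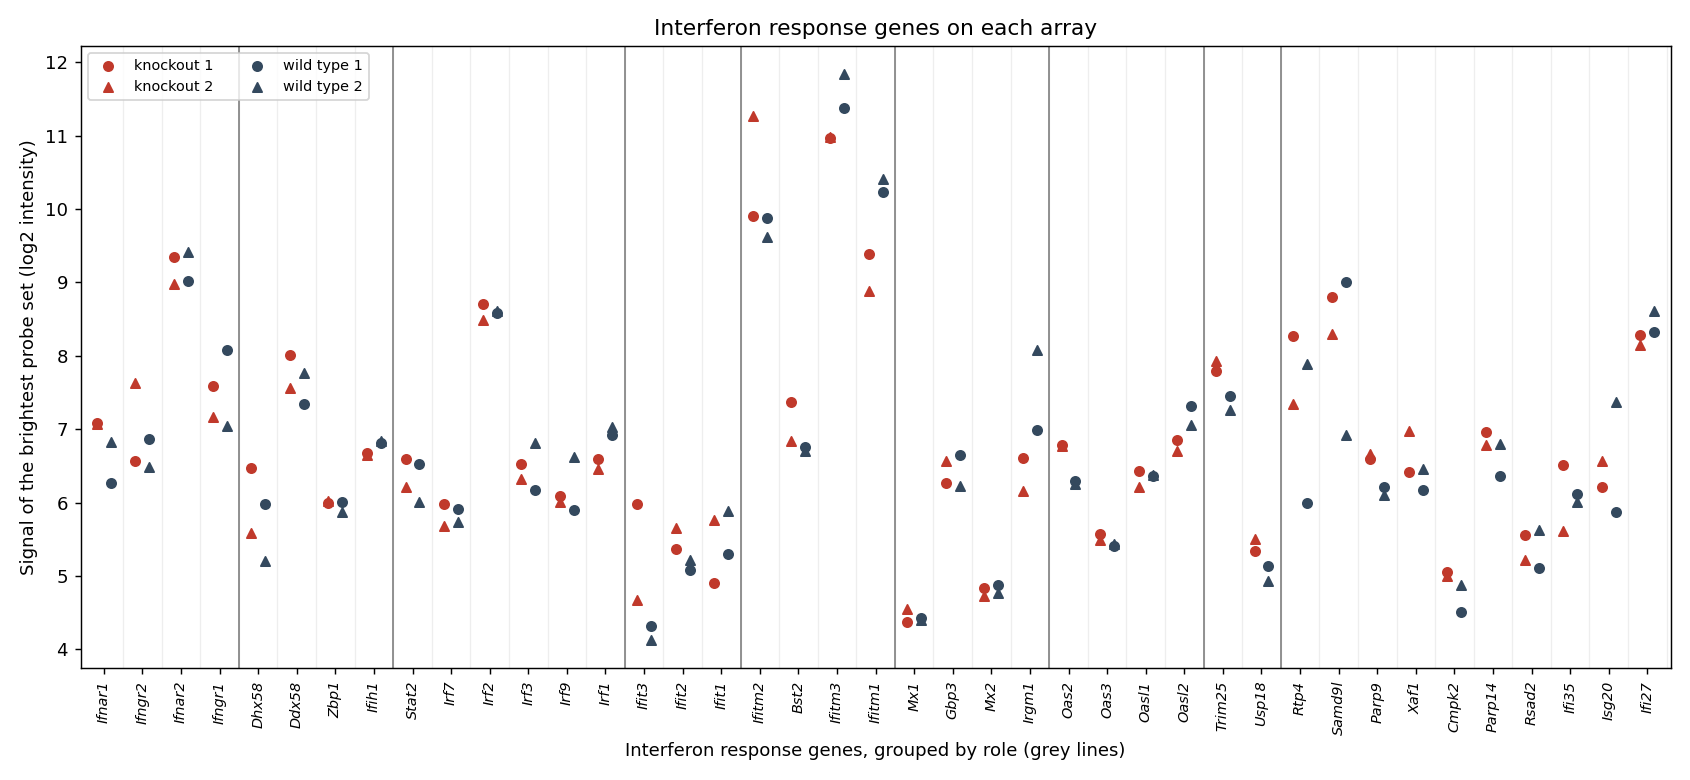
Log2 intensity of the brightest probe set of the 41 interferon response genes (x axis, grouped by role) on each array, with knockout arrays in red to the left of wild-type arrays in dark blue and replicates 1 and 2 as circles and triangles. Most genes have interleaved symbols, while Ifitm1 lies at 9.38 and 8.88 in knockout, against 10.23 and 10.40 in wild type.

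The receptors gave 2 higher and 2 lower genes. Ifnar1, a chain of the type I receptor, read 7.08 and 7.08 in knockout, against 6.26 and 6.83 in wild type. Its difference was 0.53 ± 0.24. Both knockout arrays lay above both wild-type arrays, and the wild-type arrays lay farther from each other than the difference. Ifnar2, the other chain of that receptor, read 9.34 and 8.98 in knockout, against 9.02 and 9.41 in wild type, and differed by -0.06 ± 0.23. Its groups overlapped, and the difference was 0.13 without knockout replicate 2 and 0.14 without wild-type replicate 2.

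For both chains of the interferon gamma receptor, the direction turned when single arrays were left out. Ifngr1, the ligand-binding chain, read 7.59 and 7.16 in knockout, against 8.08 and 7.05 in wild type, and differed by -0.19 ± 0.40. Wild-type replicate 1 was the high array. The difference was 0.32 without it, -0.71 without wild-type replicate 2 and 0.02 without knockout replicate 2. Ifngr2, the second chain, read 6.57 and 7.64 in knockout, against 6.87 and 6.49 in wild type, and differed by 0.42 ± 0.40 that became -0.11 without knockout replicate 2. In RefSeq, Ifnar2, Ifnar1 and Ifngr2 lie close together on chromosome 16, and their differences of -0.06, 0.53 and 0.42 were not of 1 size.

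The 6 transcription factors gave 3 higher and 3 lower genes, with differences from -0.46 to 0.14. Irf2, a factor known to restrain interferon signalling in stem cells, read 8.71 and 8.49 in knockout, against 8.58 and 8.61 in wild type, and differed by 0.00 ± 0.17 with a 95% confidence interval of -0.44 to 0.44. Irf7, the amplifier of the type I response, differed by 0.01 ± 0.19. Stat2 and Irf9, partners in the complex that binds the response element, differed by 0.14 ± 0.26 and -0.21 ± 0.28. Irf3, which starts interferon production after a virus is sensed, differed by -0.07 ± 0.26. Intervals of this width leave room for differences of about the size of Irf1, so equal levels were not shown.

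Irf1, the factor induced by interferon gamma, was the transcription factor whose groups did not overlap. It read 6.59 and 6.45 in knockout, against 6.93 and 7.03 in wild type, and differed by -0.46 ± 0.16 (limma adjusted p = 0.945). Both knockout arrays were below both wild-type arrays. Its second probe set gave -0.21 ± 0.18, also without overlap, with 5.97 and 6.08 in knockout, against 6.09 and 6.38 in wild type.

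Among the sensors of foreign nucleic acid, 3 were higher and 1 was lower in knockout. Ddx58, which encodes RIG-I, differed by 0.23 ± 0.25, and Dhx58, which encodes the related helicase LGP2, by 0.43 ± 0.42. The groups of both overlapped, and without knockout replicate 1 Dhx58 stood at -0.01 and Ddx58 at 0.0085. Ddx58 was also near 0, at 0.014, without wild-type replicate 1. Zbp1, a sensor of Z-form nucleic acid that can trigger necroptosis, differed by 0.08 ± 0.16. Ifih1, which encodes MDA5, had the tightest arrays of the sensors, at 6.68 and 6.65 in knockout, against 6.81 and 6.84 in wild type, and its difference was -0.16 ± 0.15.

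The Ifitm genes, whose small membrane proteins block virus entry and which stem cells express without added interferon, differed in direction. Ifitm1 read 9.38 and 8.88 in knockout, against 10.23 and 10.40 in wild type. All knockout values lay below all wild-type values, and the difference of -1.19 ± 0.23 (95% confidence interval -1.79 to -0.58, limma adjusted p = 0.945) corresponds to 2.27-fold lower signal in knockout. Its second probe set read 8.97 and 8.69 in knockout, against 9.95 and 10.14 in wild type, and differed by -1.22 ± 0.19. Leaving out 1 array at a time kept the difference of Ifitm1 between -1.44 and -0.93.

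Ifitm3 lay on the same side as Ifitm1 and Ifitm2 on the other. Ifitm3 read 10.97 and 10.98 in knockout, against 11.37 and 11.83 in wild type, and differed by -0.63 ± 0.21. The knockout arrays nearly coincided, and without wild-type replicate 2 the difference was -0.40. Ifitm2 read 9.90 and 11.27 in knockout, against 9.87 and 9.62 in wild type, and differed by 0.84 ± 0.48.

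For Ifitm2 the size came from knockout replicate 2, without which the difference was 0.16. The other Ifitm2 probe sets gave 0.70 ± 0.36 and 0.74 ± 0.31, with knockout replicate 2 again the highest array. These 3 genes are direct neighbours on chromosome 7 in RefSeq, and the files do not say whether their probes cross-hybridise. Bst2, which encodes tetherin and also marks plasmacytoid dendritic cells, differed by 0.38 ± 0.23 without overlap. Leaving out knockout replicate 1 gave 0.11 for Bst2, and leaving out knockout replicate 2 gave 0.65. The plasmacytoid list that includes Bst2 summed to 667 and 617 in knockout, against 665 and 499 in wild type, with a median difference of -0.01 over 5 measured markers. Of these, Siglech read 5.13 and 5.40 in knockout, against 5.62 and 5.98 in wild type, without overlap, while Tcf4 differed by 0.24, Irf8 by -0.01 and Ccr9 by -0.02, all with overlap. The part of such cells in the Bst2 value was not tested.

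**Figure D2:**
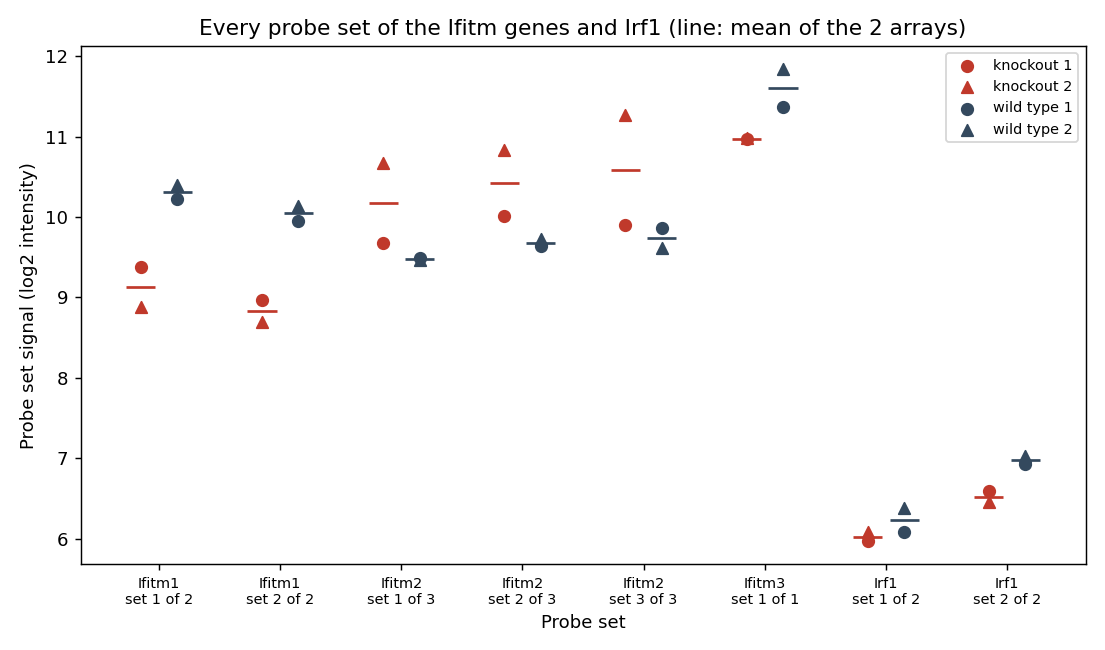
Log2 intensity of every single-symbol probe set of Ifitm1, Ifitm2, Ifitm3 and Irf1, with knockout arrays (red) left of wild-type arrays (dark blue) and a line at the mean of the 2 arrays. Both Ifitm1 probe sets are lower in knockout, and all 3 Ifitm2 probe sets are highest in knockout replicate 2.

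The Ifit genes encode tetratricopeptide proteins that bind viral RNA, and their probe sets were dim. Ifit3 read 5.98 and 4.67 in knockout, against 4.32 and 4.13 in wild type, and differed by 1.10 ± 0.46 or 2.14-fold. Knockout replicate 1 stood apart, and without it the difference was 0.44. Ifit2, its neighbour, differed by 0.36 ± 0.18 without overlap, and Ifit1 by -0.26 ± 0.37 with overlap, so the cluster on chromosome 19 was not of 1 direction. Ifit1 carries the same pair of response element matches as Ifit3 in the sequences above, TTTCACTTTC and TTTCAGTTTC, whereas Ifit2 has none in its windows. With no detection calls, a fold against wild-type readings as low as those of Ifit3 depends on the floor of the arrays, where 5% of probe sets lay under 3.03 to 3.24.

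Among the GTPases, Irgm1, an immunity-related GTPase gene known in mice to preserve stem cell function, had the largest difference. It read 6.61 and 6.15 in knockout, against 6.99 and 8.07 in wild type, and differed by -1.15 ± 0.41 with no overlap. Wild-type replicate 2 was the high array, and without it the difference was -0.61. Gbp3, a guanylate-binding protein gene, differed by -0.02 ± 0.23.

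Mx1 and Mx2, which encode antiviral dynamin-like GTPases, are listed by RefSeq as transcribed pseudogenes in the C57BL/6J genome. Mx1 read 4.37 and 4.55 in knockout, against 4.43 and 4.40 in wild type, and was dim on every array. Mx2 differed by -0.04 ± 0.16. Irgm2 and Igtp share a probe set, which differed by -0.29 ± 0.27. A probe set shared by Gbp2 and Gbp2b read 6.00 and 6.34 in knockout, against 6.61 and 7.47 in wild type, and differed by -0.87 ± 0.34 without overlap. Signal cannot be assigned to either gene of such a pair, and these probe sets were not counted among the 41.

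The oligoadenylate synthetases make the second messenger that turns on RNase L. Oas2 had close replicates in both groups, at 6.78 and 6.78 in knockout, against 6.29 and 6.25 in wild type, and differed by 0.50 ± 0.15 (95% confidence interval 0.11 to 0.90, limma adjusted p = 0.945). Leaving out 1 array at a time kept it between 0.48 and 0.52. Its neighbour Oas3 differed by 0.11 ± 0.15 without overlap. The synthetase-like genes lay on the lower side, Oasl2 by -0.41 ± 0.18 without overlap and Oasl1 by -0.05 ± 0.17.

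In the ubiquitin and Isg15 system both measured genes were higher in knockout. Trim25, the ubiquitin ligase that activates RIG-I, read 7.79 and 7.93 in knockout, against 7.45 and 7.25 in wild type, and differed by 0.50 ± 0.17. Usp18, the protease that removes Isg15 and dampens the type I receptor, differed by 0.39 ± 0.17. Neither gene overlapped between the groups. The probe set of Isg15 itself is shared with Gm9706 and differed by 0.11 ± 0.43, with 6.49 and 5.45 in knockout, against 5.52 and 6.20 in wild type.

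The remaining effectors gave 8 higher and 2 lower genes. Parp9, a macrodomain protein gene, read 6.60 and 6.66 in knockout, against 6.21 and 6.11 in wild type, and differed by 0.47 ± 0.16 without overlap, and its close neighbour Parp14 differed by 0.29 ± 0.22. Cmpk2, a mitochondrial nucleotide kinase gene, differed by 0.34 ± 0.19 without overlap, whereas its neighbour Rsad2, which encodes viperin, differed by 0.02 ± 0.25. Xaf1, a pro-apoptotic gene, differed by 0.38 ± 0.26 and Ifi35 by 0.00 ± 0.33, both with overlap. Ifi27, a mitochondrial protein gene, differed by -0.25 ± 0.18 without overlap. Single arrays moved several of these values: Xaf1 stood at 0.10 without knockout replicate 2, Parp14 at 0.07 and Cmpk2 at 0.16 without wild-type replicate 1, and Ifi27 at -0.10 without wild-type replicate 2. No probe set of the annotation carried the symbol Ifi44.

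**Figure D3:**
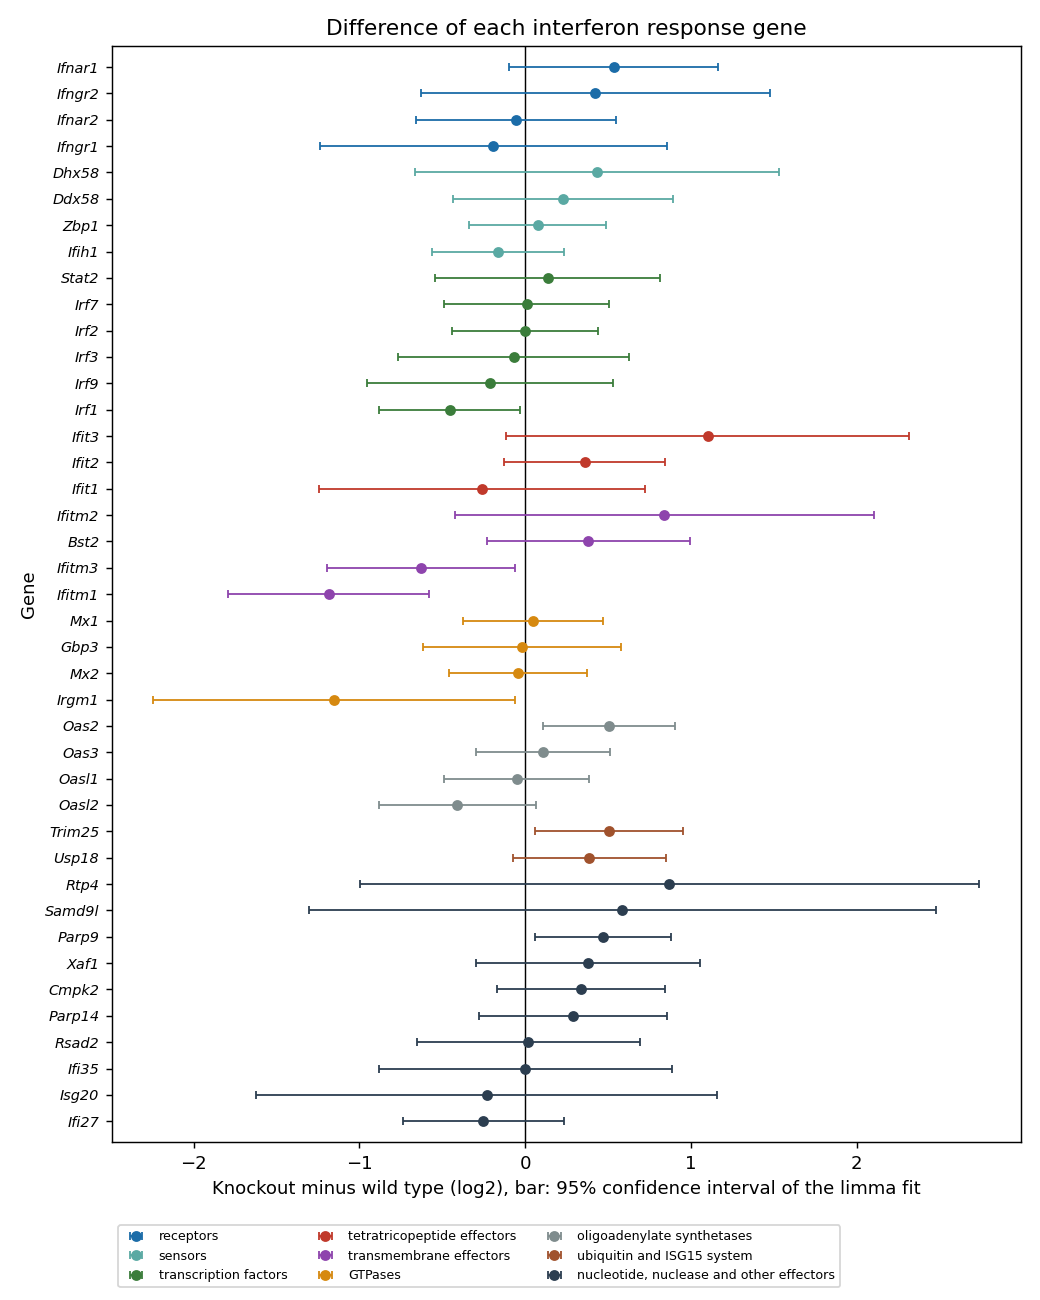
Knockout minus wild-type difference on the log2 scale (x axis) of each of the 41 genes, grouped and coloured by role, with the 95% confidence interval of the limma fit as bars. Intervals that leave out 0 belong to 7 genes, and no gene passed after adjustment.

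For most of the 41 genes, as for most genes on the arrays, the arrays of 1 genotype lay farther apart than the genotypes did. Gaps of at least 2-fold were more frequent among the 41 than among all genes. The knockout arrays lay this far apart for 3 of them (7.32%, against 3.52% of all genes), namely Ifitm2, Ifit3 and Ifngr2. The wild-type arrays did so for 5 (12.2%, against 4.56% of all genes), namely Samd9l, Rtp4, Isg20, Irgm1 and Ifngr1. For 29 of the 41 genes the larger gap within a group exceeded the difference between the groups, against 78.5% of all genes.

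Samd9l, a growth-restraining gene mutated in human bone marrow failure, had the widest gap, at 8.80 and 8.30 in knockout, against 9.0 and 6.92 in wild type. Its difference of 0.59 ± 0.72 became -0.45 without wild-type replicate 2. Rtp4, a receptor-transporting protein gene induced by type I interferon, read 8.27 and 7.34 in knockout, against 5.99 and 7.88 in wild type. Wild-type replicate 1 was the low array, and without it the difference of 0.87 ± 0.71 became -0.08. Isg20, an RNA exonuclease gene, read 6.22 and 6.56 in knockout, against 5.87 and 7.37 in wild type. Between the wild-type arrays, Samd9l and Ifngr1 were higher in replicate 1, whereas Rtp4, Isg20 and Irgm1 were higher in replicate 2.

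**Figure D4:**
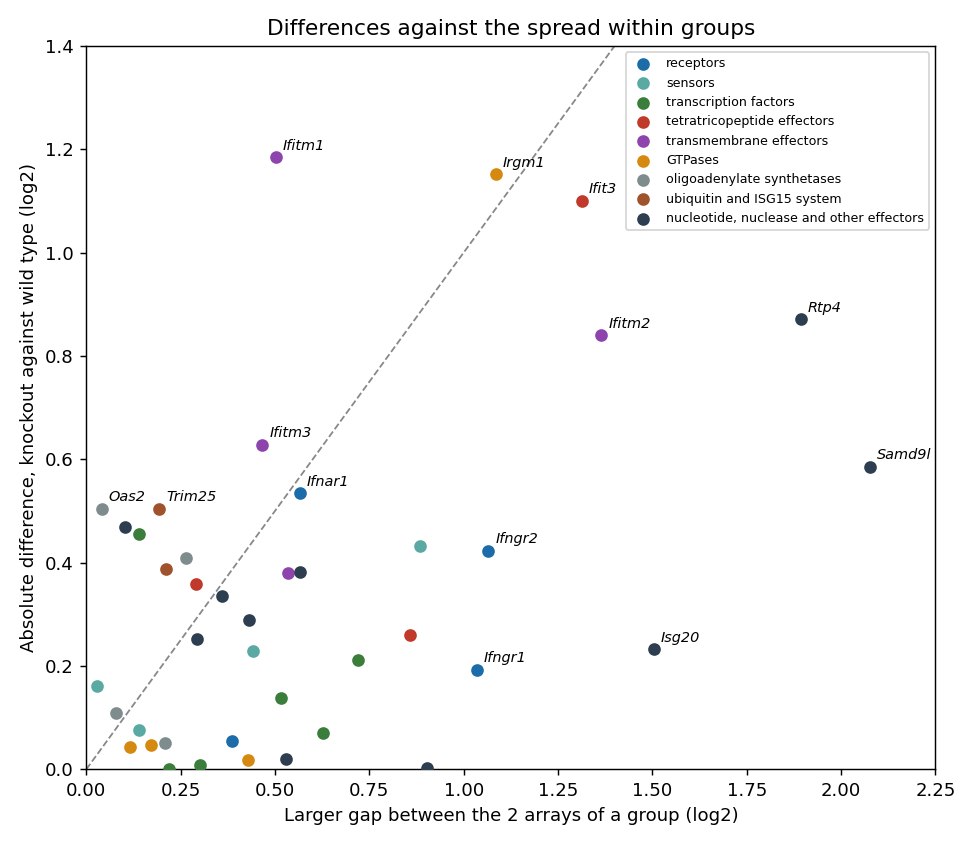
Absolute difference between knockout and wild type (y axis, log2) against the larger of the gaps between the 2 arrays of a group (x axis, log2) for each of the 41 genes, coloured by role, with a dashed line where they are equal. Of the genes at least 2-fold apart, Ifitm1 lies far above the line, Irgm1 just above it and Ifit3 below it.

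Of 80 further interferon pathway genes, 65 were measured and 0 passed in limma. At an unadjusted limma p under 0.05 stood 2 of the 65, against 4.81% of all genes. There were 27 higher and 38 lower in knockout, with a median difference of -0.01, and 23 did not overlap between groups (35.4%, against 33.2% of all genes). At least 2-fold apart without overlap was 1 of the 65, against 1.22% of all genes, namely Oas1b, an oligoadenylate synthetase gene. It read 5.09 and 6.37 in knockout, against 4.45 and 4.95 in wild type, and differed by 1.03 ± 0.48. Its knockout arrays lay 1.28 apart, farther than that difference, and its mean of 5.22 was below the median gene (5.77). The interferon genes themselves had 16 of 21 measured, 9 higher and 7 lower, with differences from -0.58 to 0.68. In limma 0 were past the threshold and 1 of the 16 stood at an unadjusted p under 0.05, against 4.81% of all genes.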

How the data were processed

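The authors deposited a single table of intensity values, with a row for each probe set and a column for each of the 4 arrays. The submitters' processing notes name RMA and Affymetrix Expression Console but give no settings. Per the labels' protocols, RNA of sorted cells was amplified with the NuGen Ovation System and labelled with biotin. Values reached 19067, so they were read as linear intensities and log2 was taken; no further normalization was applied. The first 6615 of 35554 probe sets precede the first annotated one and were left out as presumed controls. The platform annotation of 2016 gave 1 symbol to 21789 of the 28939 tested probe sets, several to 1621 and none to 5529. Groups came from the sample titles. The fit was limma 3.58.1 in R 4.3.3 (lmFit, eBayes, two-sided, Benjamini-Hochberg over all tested probe sets), and it was tested on simulated data. A gene did not overlap when both arrays of 1 group lay above both of the other. Values on every array are given for genes at least 2-fold apart, genes without overlap that differ by at least 0.5, the receptors and the brightest and dimmest probe sets; Irf1, Irf2, Ifih1, Parp9, Rtp4, Samd9l, Isg20 and the shared probe sets of Isg15 and Gbp2 were added after their values were seen. The members and lists were chosen with earlier results of these data known.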

Additional observations from a re-analysis of the deposited data

How the results depend on the processing

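The count of genes past the threshold stayed at 0 under all alternatives run, with adjusted p of single genes from 0.603 to 1.000, and the median difference of the genes stayed within the spread between replicates. The number at least 2-fold apart without overlap was 1 after 32 was added to every intensity, with Ifit3 then at 0.54 and Irgm1 at -0.92, since an added constant shrinks differences, and 5 at a 1.5-fold limit. The number without overlap was 28 to 31 when single arrays were left out, since fewer arrays overlap less often. With the replicate block 0 genes passed and the median was 0.05; equal numbers are not stated to mark 1 mouse, and the deviations of same-numbered arrays correlated at 0.0434 over probe sets. Counting shared probe sets as well was chosen after seeing the data and gave 19 genes without overlap and 0 past the threshold. Of 491 values of single genes, 456 kept direction and side, which says little as none had passed, and 35 turned; the cause was not tested. Irf2 stood at -0.026 and Mx2 at 0.016 with cyclic loess, and Irf2 at -0.0088, Mx2 at 0.012 and Ifi35 at -0.020 with quantile normalization again. With an array left out, ranges were -0.69 to 0.17 for Ifit1, -0.45 to 0.45 for Ifi35, -0.23 to 0.20 for Gbp3, -0.12 to 0.40 for Stat2, -0.11 to 0.11 for Irf2, -0.14 to 0.16 for Irf7, -0.24 to 0.28 for Rsad2, -0.0097 to 0.88 for Dhx58, -0.38 to 0.25 for Irf3, -0.16 to 0.053 for Oasl1, -0.039 to 0.13 for Mx1, -0.10 to 0.014 for Mx2, -0.25 to 0.14 for Ifnar2, -0.71 to 0.32 for Ifngr1, -0.11 to 0.96 for Ifngr2, -0.076 to 1.82 for Rtp4, -0.57 to 0.15 for Irf9, -0.98 to 0.52 for Isg20 and -0.45 to 1.62 for Samd9l. Signal over background was not used here, which limits dim probe sets.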
